A study of Mus musculus with 24 samples.

Results

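The 10 genes described here load antigenic peptides onto MHC class I molecules or build the immunoproteasome that makes those peptides. They are Tap1, Tap2, Tapbp, Tapbpl, Psmb8, Psmb9, Psmb10, Psme1, Psme2 and Nlrc5, taken by symbol from the 52636 Ensembl genes in the deposited tables of mouse bone marrow-derived macrophages. All 10 passed the filter on low counts, among 14681 genes tested. Cells had 1 of 4 labelled genotypes, TBK1-cKD IKKe knockout, TBK1-cKD control, TBK1-WT IKKe knockout and TBK1-WT control, each studied after 8 h of R837 and untreated, with 3 libraries in each of the 8 groups. R837 (imiquimod) is a small-molecule agonist of the endosomal receptor TLR7. TBK1 and IKKe are related kinases that act in type I interferon induction and in inflammatory signalling. The series describes cKD as a conditional knockout. Its allele, the promoter driving recombination, how IKKe was removed and what the control carries (both are written with a delta sign) were not given in the labels. The protocol text shared by all records names wild-type C57BL/6N mice, marrow grown in M-CSF, replating on day 5, 2 more days of culture, and 3 individual mice as the biological replicates.

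The proteasome cuts cytosolic proteins into peptides. Cells exposed to interferon replace its constitutive catalytic subunits by Psmb8 (beta5i), Psmb9 (beta1i) and Psmb10 (beta2i), and Psme1 and Psme2 form the PA28 cap that opens the core. Tap1 and Tap2 pump the peptides into the endoplasmic reticulum, Tapbp (tapasin) holds an empty class I molecule beside that pump, Tapbpl (TAPBPR) exchanges and edits the bound peptide, and Nlrc5 is the transactivator that drives transcription of class I genes, TAP1, B2M and PSMB9.

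The libraries held 19727746 to 41323219 reads counted in genes. The mean log2 CPM (read counts scaled to library size, with TMM factors) of Malat1, Neat1 and Xist, 3 RNAs kept in the nucleus, split them into 14 at 8.94 to 9.46 and 10 at 5.25 to 5.64. All 12 untreated libraries lay in the high set, and so did 2 R837 libraries, replicate 1 of the TBK1-WT control (8.94) and replicate 3 of the TBK1-cKD IKKe knockout (9.15). Treatment and this nuclear RNA level can therefore hardly be told apart in the TBK1-cKD control and the TBK1-WT IKKe knockout, and calls that change without the 2 libraries are given both ways. R837 replicate 2 of the TBK1-cKD control had the lowest depth and the fewest genes with a count, 14226. Untreated replicate 2 of the TBK1-WT IKKe knockout, at a like depth of 20314401 counts, had 18427 such genes. In bulk RNA, fewer cells of a type and less RNA per cell cannot be told apart. The 8 macrophage markers summed to 18500 to 30200 CPM after R837 and 18200 to 25800 CPM in untreated libraries. The neutrophil list moved with the treatment, at 17.8 to 183 CPM after R837 and 1.13 to 5.47 CPM untreated, carried by S100a8, while Ly6g was at 0 in 21 of 24 libraries, and its part in the results was not tested. The fibroblast list summed to 4.57 to 26.5 CPM after R837 and 10.6 to 39.1 CPM untreated, and the T and NK cell list to 2.03 to 5.27 CPM after R837 and 6.83 to 18.5 CPM untreated, with Cd3e at 0 in 22 libraries. Both erythroid markers were at 0 in all 24 libraries, and the dendritic cell, B cell and mast cell lists summed to at most 1.47, 0.425 and 0.122 CPM.

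Tbk1, the gene altered in TBK1-cKD cells, averaged 6.22 ± 0.03 log2 CPM in untreated TBK1-cKD control libraries and 6.67 ± 0.03 in untreated TBK1-WT control libraries (SD, n = 3 each), a fall by 0.45 ± 0.07 on the log2 scale (edgeR quasi-likelihood test, adjusted p = 0.000674). It averaged 6.48 ± 0.02 log2 CPM in untreated TBK1-cKD IKKe knockout libraries, a difference of -0.20 ± 0.07 from the TBK1-WT control that did not pass (adjusted p = 0.0925), and after R837 the difference was -0.08 ± 0.07 (adjusted p = 0.445). Ikbke, which encodes IKKe, fell by 1.92 ± 0.31 in the TBK1-WT IKKe knockout after R837 (adjusted p = 0.000987), at 6.24 ± 0.09 log2 CPM, against 8.10 ± 0.49 log2 CPM in the R837-treated TBK1-WT control. Untreated, Ikbke was not called between the TBK1-WT IKKe knockout and the TBK1-WT control, where 0.0% of all genes were called. It reached 6.31 ± 0.04 log2 CPM in untreated TBK1-cKD IKKe knockout libraries, against 6.21 ± 0.04 in untreated TBK1-cKD control libraries. After R837 it ran between 6.28 and 8.02 in the TBK1-cKD IKKe knockout and between 7.90 and 7.95 in the TBK1-cKD control, a fall by 0.79 ± 0.30 (adjusted p = 0.0449), and by 1.03 ± 0.30 against the R837-treated TBK1-WT control (adjusted p = 0.0101). Tbk1 was higher by 0.28 ± 0.07 in the R837-treated TBK1-cKD IKKe knockout than in the R837-treated TBK1-cKD control (adjusted p = 0.0068). After R837 the mean Ikbke level of the TBK1-cKD IKKe knockout thus went with its label. Its highest library, at 8.02, still lay above every R837-treated TBK1-cKD control library. Untreated, the Ikbke level did not go with the label, and the Tbk1 level did so in neither state. A count over a whole gene need not show a deletion of part of it. That group is called here by its label.

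Of the 10 genes, 5 lie together in the MHC region of chromosome 17 (GENCODE M21 annotation of GRCm38). Psmb9 spans chr17:34181987-34187764 on the minus strand and Tap1 spans chr17:34187553-34197225 on the plus strand, so that the 2 divergent genes overlap by 212 bases. Psmb8 (chr17:34197721-34201454) and Tap2 (chr17:34203527-34216321) follow, and Tapbp lies at chr17:33915899-33929292. Psme1 (chr14:55578123-55581529) and Psme2 (chr14:55587441-55591113) are neighbours on opposite strands of chromosome 14, Psmb10 (chr8:105935735-105938444) and Nlrc5 (chr8:94434356-94527272) share chromosome 8, and Tapbpl (chr6:125223933-125231860) lies within the span of Vamp1 on chromosome 6. Zbtb22 shares 3422 bases with Tapbp and took 36386 counts over the 24 libraries, against 519047 in Tapbp, and Vamp1 took 2850 counts, against 27331 in Tapbpl. The labelled kit does not mark strand, so reads in overlaps of opposite genes cannot be assigned by strand.

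The RefSeq promoter table (GRCm38.p6) held windows of 300 bases, 250 before and 50 after a transcription start, for 7 of the 10 genes, 8 windows in all. The 3 shown are the Tap1 window, which overlaps that of the divergent Psmb9 gene (their starts lie 226 bases apart), and the 2 windows in which an interferon-type motif was found, since these genes moved together. Capitals mark that motif, and the Tap1 window has none.
Tap1 (chr17:34187306-34187605, plus strand): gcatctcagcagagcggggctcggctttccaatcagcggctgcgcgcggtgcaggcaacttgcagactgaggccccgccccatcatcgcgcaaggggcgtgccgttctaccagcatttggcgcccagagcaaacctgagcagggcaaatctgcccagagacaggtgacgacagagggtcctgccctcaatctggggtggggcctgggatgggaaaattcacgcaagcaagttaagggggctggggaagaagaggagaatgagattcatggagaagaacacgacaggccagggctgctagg
Psmb8 (chr17:34197945-34198244, plus strand): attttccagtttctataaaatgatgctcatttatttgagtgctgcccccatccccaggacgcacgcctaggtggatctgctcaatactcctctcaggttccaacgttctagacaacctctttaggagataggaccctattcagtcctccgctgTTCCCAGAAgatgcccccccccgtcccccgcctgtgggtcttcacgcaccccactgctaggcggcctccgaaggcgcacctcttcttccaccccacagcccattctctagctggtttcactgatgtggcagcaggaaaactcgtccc
Psme1 (chr14:55578244-55578543, plus strand): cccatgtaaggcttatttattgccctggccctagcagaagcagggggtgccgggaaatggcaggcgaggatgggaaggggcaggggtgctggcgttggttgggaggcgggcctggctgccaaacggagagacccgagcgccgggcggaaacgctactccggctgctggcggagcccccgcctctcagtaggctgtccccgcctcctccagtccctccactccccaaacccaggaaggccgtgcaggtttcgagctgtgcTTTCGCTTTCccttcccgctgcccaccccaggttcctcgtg

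The Psme1 window held GAAA, then 2 bases of any kind, then GAAA, the core of an interferon-stimulated response element, on its minus strand at bases 260 to 269, just after the start. This motif was in 1 of the 8 windows and in 3.44% of 32843 other promoter windows of the same length. The Psmb8 window held TTCNNNGAA, the palindrome bound by STAT dimers, at bases 154 to 162, and this motif was in 1 of 8 windows and in 8.3% of the others. GGG, then 3 bases of any kind, then TTCC, a form of the NF-kappaB site, was in 0 of 8 windows and in 5.56% of the others. CCAAT was in 3 of 8 windows (Tapbp, Psmb9, Tap1) and in 37.4% of the others. Both strands were searched, and the Tap1 and Psmb9 windows share 275 bases, including this CCAAT. A match is a description of the letters in these windows only.

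By deposited RPKM (read counts scaled by gene length and library size), which allows genes to be set beside one another, Tapbp and Psmb8 stood high in this set and Nlrc5 and Tapbpl low. Tapbp averaged 371 RPKM in TBK1-cKD IKKe knockout libraries after R837 and 114 RPKM in untreated TBK1-cKD control libraries, the ends of its range of group means. Psmb8 averaged 245 RPKM in the R837-treated TBK1-cKD IKKe knockout and 65.6 RPKM in the untreated TBK1-cKD control. Nlrc5 averaged 15.0 RPKM in the R837-treated TBK1-cKD IKKe knockout and 5.84 RPKM in the untreated TBK1-cKD control, the lowest of the 10 genes in both groups. In all 10 genes the highest of the 8 group means belonged to the TBK1-cKD IKKe knockout after R837. The lowest belonged to the untreated TBK1-cKD control, level with the untreated TBK1-WT control in Psme2.

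**Figure D1:**
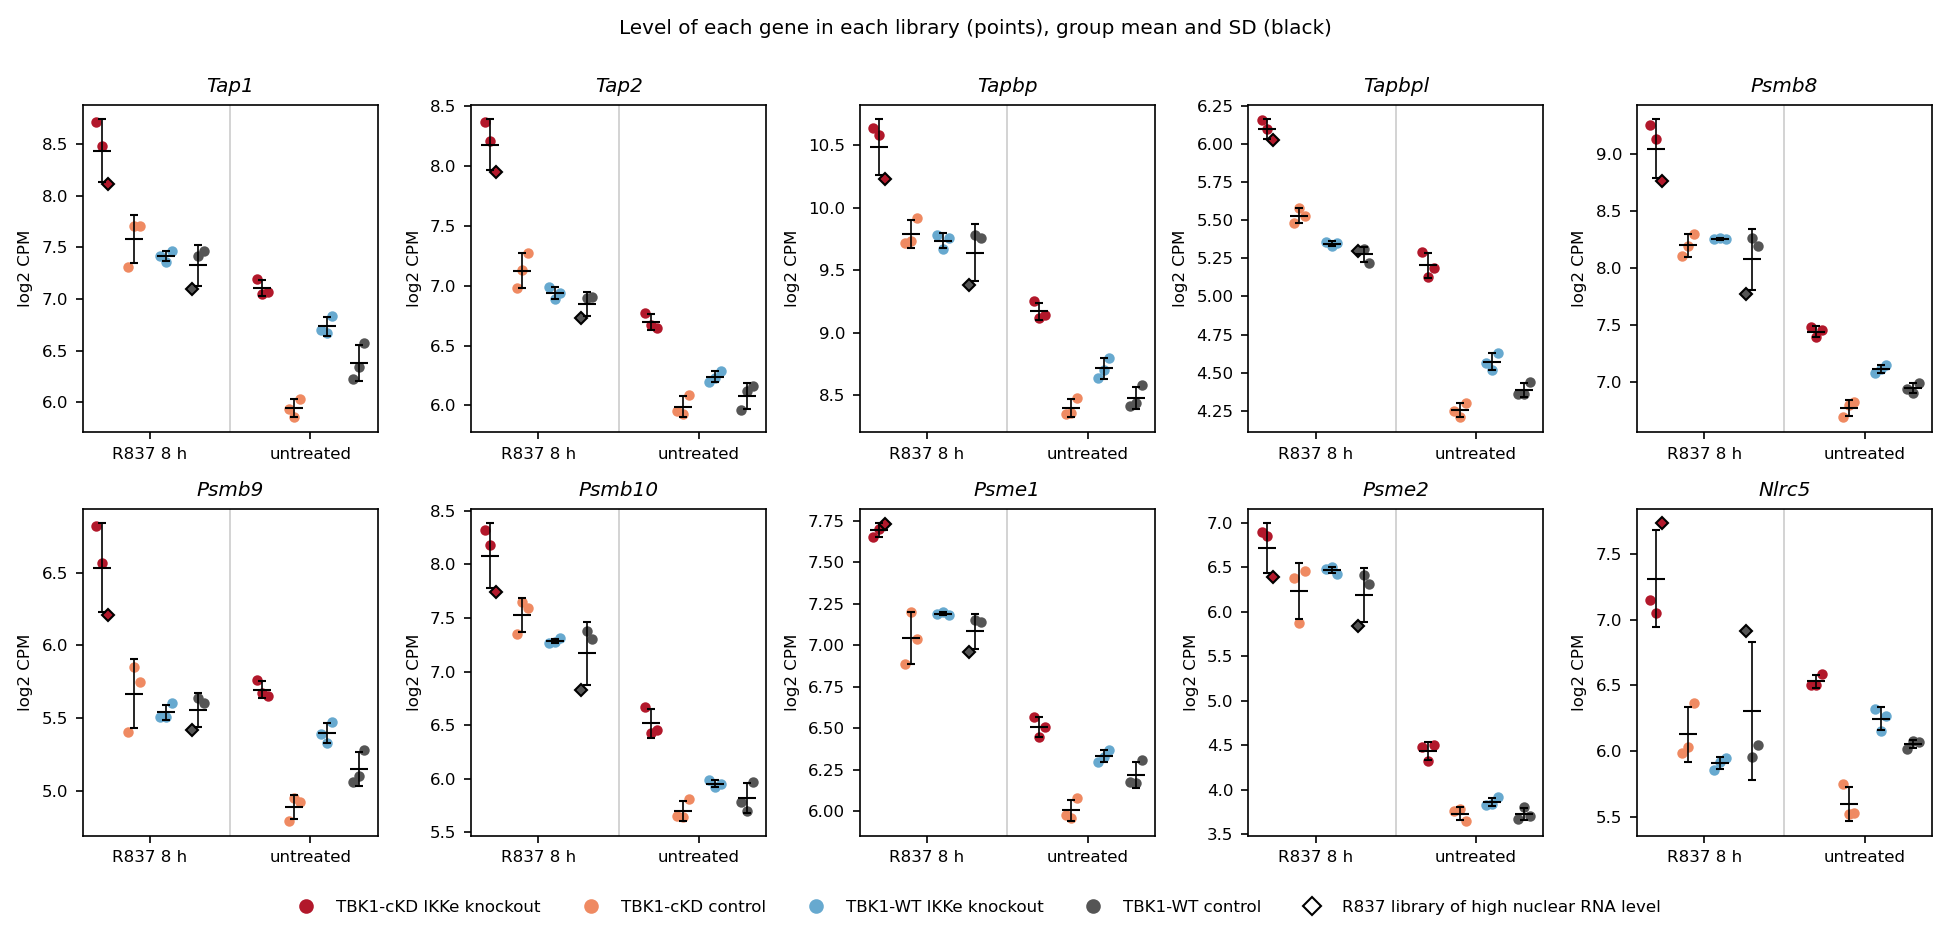
Level (log2 CPM) of each of the 10 genes in each of the 24 libraries, with R837 groups left of untreated groups and the mean and SD of 3 libraries in black; diamonds mark the 2 R837 libraries of high nuclear RNA level. In Tap1 the TBK1-cKD IKKe knockout libraries after R837 sit between 8.11 and 8.71, above every other library, and in Nlrc5 the 2 diamonds sit at 7.73 and 6.91, above the other R837 libraries of their own groups.

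R837 raised the peptide pump, tapasin, TAPBPR, the immunosubunits and PA28 in macrophages of the TBK1-WT control. Of the 10 genes, 9 rose and none fell at an adjusted p under 0.05, in a comparison in which 62.6% of all genes were called and 30.6% were called higher. The median change of the 10 was 0.92 on the log2 scale, beside -0.04 over all genes tested. Since so many genes were called, the count says little about these 10 alone. The rises of 8 genes lay between 0.41 (Psmb9) and 1.37 (Psmb10), and Psme2 stood above them.

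Psme2, a PA28 subunit, had 51.6, 74.8 and 68.4 RPKM in the TBK1-WT control after R837, against 13.2, 14.4 and 13.6 RPKM untreated. The groups were far apart, and replicate 1, of high nuclear RNA level, was the lowest R837 library. The change was 2.48 ± 0.15 on the log2 scale, or 5.56-fold (edgeR, adjusted p = 8.54e-12). In this group Psme1, the other PA28 subunit, rose less, by 0.87 ± 0.07 (adjusted p = 5.87e-10), at 98.5, 109 and 107 RPKM after R837, against 66.1, 64.9 and 72.1 RPKM untreated. Psme2 shares 28.3% of its 50-base stretches with its near-identical copy Psme2b, which took 110464 counts over the 24 libraries, against 36375 in Psme2, so the split between the copies is uncertain. With the counts of both summed, the R837 changes were 2.18 in the TBK1-cKD IKKe knockout, 2.36 in the TBK1-cKD control, 2.39 in the TBK1-WT IKKe knockout and 2.23 in the TBK1-WT control.

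Psmb10, the immunosubunit with trypsin-like activity, had 76.2, 109 and 102 RPKM in the TBK1-WT control after R837, against 42.5, 39.9 and 48.3 RPKM untreated, a rise of 1.37 ± 0.13 (adjusted p = 1.7e-08). Psmb8, the chymotrypsin-like immunosubunit, had 117, 161 and 151 RPKM after R837, against 76.0, 73.7 and 78.9 RPKM untreated, a rise of 1.14 ± 0.11 (adjusted p = 8.26e-09). Psmb9 moved least of the 3 immunosubunits, with 27.8, 31.7 and 30.4 RPKM after R837, against 25.0, 25.4 and 29.1 RPKM untreated. In RPKM the Psmb9 groups overlapped, while in log2 CPM they did not (5.42, 5.64 and 5.60 after R837, against 5.06, 5.10 and 5.28 untreated), and the rise of 0.41 ± 0.12 had an adjusted p = 0.00558. With that nuclear RNA level as a model term it was 0.18 ± 0.11 (adjusted p = 0.153), and without the 2 libraries of high level 0.53 ± 0.09 (adjusted p = 2.45e-05).

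Tap1 had 40.7, 49.6 and 50.2 RPKM in the TBK1-WT control after R837, against 25.7, 27.6 and 32.5 RPKM untreated, a rise of 0.95 ± 0.13 (adjusted p = 2.35e-06). Its partner Tap2 rose by 0.76 ± 0.09 (adjusted p = 2.46e-07). Tapbp rose by 1.18 ± 0.10 (adjusted p = 2.56e-09), at 202, 260 and 254 RPKM after R837, against 119, 121 and 133 RPKM untreated, and Tapbpl by 0.89 ± 0.06 (adjusted p = 1.98e-11). In log2 CPM, 9 of the 10 genes had their lowest R837 library above their highest untreated library, as had 31.7% of all genes, and Nlrc5 was the exception.

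Nlrc5 moved with the nuclear RNA level of the libraries. It had 6.91, 5.96 and 6.05 log2 CPM in the TBK1-WT control after R837, the first being the library of high level, against 6.02, 6.08 and 6.07 log2 CPM untreated. The 2 R837 libraries of low level were thus level with or below the untreated ones and the remaining one was well above. The change was 0.32 ± 0.19 (adjusted p = 0.144). With that level as a model term it was 0.77 ± 0.09 (adjusted p = 1.22e-07), over the 14 libraries of high level alone 0.85 ± 0.07 (adjusted p = 2.08e-08), and without the 2 R837 libraries of high level -0.00 ± 0.09 (adjusted p = 0.97). No R837 direction of Nlrc5 can therefore be given for the TBK1-WT control apart from the state of the libraries.

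In the TBK1-WT IKKe knockout, 8 of the 10 genes rose after R837 and none fell, where 70.2% of all genes were called and 32.4% were called higher, with a median change of 0.82 beside -0.07 over all genes. Psme2 rose by 2.61 ± 0.15 (adjusted p = 3.46e-12) and Psmb10 by 1.33 ± 0.13 (adjusted p = 2.28e-08). Psmb9 (0.14 ± 0.12, adjusted p = 0.307) and Nlrc5 (-0.33 ± 0.19, adjusted p = 0.121) did not pass. Psmb9 did without the 2 R837 libraries of high level (0.19 ± 0.08, adjusted p = 0.048) and on these 2 groups alone (0.19 ± 0.05, adjusted p = 0.00295). With the level as a model term it was -0.21 ± 0.13 (adjusted p = 0.169). In RPKM, which uses no TMM factors, Psmb9 had 27.8, 28.0 and 30.0 after R837, against 31.2, 29.7 and 32.5 untreated. The sign of its small change thus also turned with the scaling. Nlrc5 had 5.91, 6.18 and 6.38 RPKM after R837, all of low nuclear RNA level, against 9.88, 8.67 and 9.35 RPKM untreated, all of high level. Here the sign turned with the setting. With the level as a model term Nlrc5 was called higher by 0.43 ± 0.11 (adjusted p = 0.0025). Without the 2 R837 libraries of high level it was called lower, at -0.29 ± 0.08 (adjusted p = 0.00232). The level did not vary within these 2 groups, so the term was set by the 2 R837 libraries of high level, of other genotypes. Its use here assumes the same effect of the level in every genotype. Tap1 rose by 0.68 ± 0.13 (adjusted p = 0.000116) but by 0.26 ± 0.13 with that term (adjusted p = 0.0957), and the term also lowered Tapbp to 0.64 ± 0.08, Psmb8 to 0.69 ± 0.07, Psmb10 to 0.82 ± 0.10 and Tap2 to 0.44 ± 0.09, all still called.

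In the TBK1-cKD control, all 10 genes rose after R837 (69.1% of all genes called, 31.6% higher), with a median change of 1.34 beside -0.08 over all genes. Tap1 had 44.3, 58.8 and 58.6 RPKM after R837, against 20.6, 19.2 and 21.4 RPKM untreated, a rise of 1.64 ± 0.13 (adjusted p = 8.02e-10). Psmb10 rose by 1.84 ± 0.14 (adjusted p = 1.89e-10), and Psmb9 by 0.79 ± 0.12 (adjusted p = 8.9e-06). Psme2 had 70.4, 50.3 and 74.5 RPKM after R837, against 13.7, 13.9 and 12.4 RPKM untreated. The low value of 50.3 belonged to replicate 2, the shallowest library. It had counts in 14226 genes, against 17948 and 17592 in replicates 1 and 3. The rise of Psme2 was 2.53 ± 0.15 (adjusted p = 6.44e-12). Nlrc5 rose by 0.54 ± 0.19 (adjusted p = 0.0163), a call that was lost without R837 replicate 3 (0.41), untreated replicate 2 (0.50) or untreated replicate 3 (0.50). In RPKM the Nlrc5 groups overlapped, at 6.48, 6.67 and 8.38 after R837, against 6.51, 5.53 and 5.49 untreated. With the level as a model term Nlrc5 was 1.30 ± 0.11, and Psmb9 was 0.43 ± 0.13. Here too that term was set by the 2 R837 libraries of high level, which belong to other genotypes.

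In the TBK1-cKD IKKe knockout, all 10 genes rose after R837 (66.5% of all genes called, 31.6% higher), with a median of 1.34 beside -0.07 over all genes. Tap2 had 70.7, 63.5 and 55.2 RPKM after R837, against 30.0, 28.4 and 27.8 RPKM untreated, a rise of 1.49 ± 0.09 (adjusted p = 4.92e-12). Psmb8 had 276, 254 and 204 RPKM after R837, against 104, 99.2 and 102 RPKM untreated, a rise of 1.62 ± 0.11 (adjusted p = 2.46e-11). In both genes replicate 3, the library of high nuclear RNA level, was the lowest of the R837 group and still above every untreated library. Nlrc5 ran the other way, with 7.15, 7.05 and 7.73 log2 CPM after R837, replicate 3 being the highest, against 6.5, 6.5 and 6.59 log2 CPM untreated. Its rise was 0.81 ± 0.19 (adjusted p = 0.000749), 0.63 ± 0.08 without the 2 libraries of high level (adjusted p = 5.13e-07) and 1.29 ± 0.09 with the level as a model term (adjusted p = 1.01e-11).

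**Figure D2:**
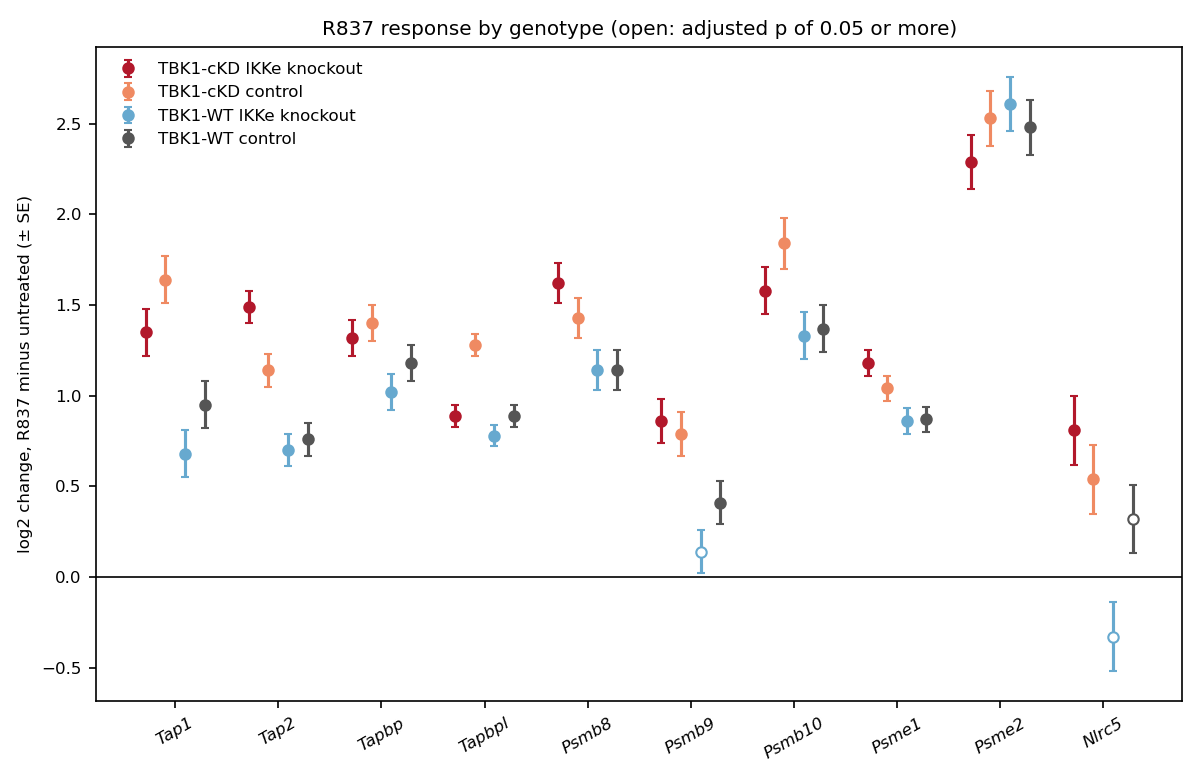
Change after R837 (log2, R837 minus untreated, with the standard error) of each gene in the 4 genotypes, from 3 libraries per group; open points have an adjusted p of 0.05 or more. Psme2 stands highest in every genotype (2.29 to 2.61), and the open points are Psmb9 in the TBK1-WT IKKe knockout and Nlrc5 in the TBK1-WT IKKe knockout and TBK1-WT control.

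Without treatment, TBK1-cKD IKKe knockout libraries already held more RNA of 9 of the 10 genes than the TBK1-WT control, and none was lower. In this comparison 13.6% of all genes were called and 8.52% were called higher, and the median change was 0.65 beside 0.00 over all genes. The 6 libraries compared share the high nuclear RNA level, at 9.19 to 9.40 in the TBK1-cKD IKKe knockout and 8.95 to 9.21 in the TBK1-WT control. Every one of the 10 genes had its 3 TBK1-cKD IKKe knockout libraries above its 3 TBK1-WT control libraries, as had 25.1% of all genes. Beside these values, the fibroblast markers summed to 10.6 to 15.2 CPM in the TBK1-cKD IKKe knockout and 32.0 to 39.1 CPM in the TBK1-WT control, and the neutrophil markers to 1.13 to 1.57 CPM in the TBK1-cKD IKKe knockout and 3.88 to 5.47 CPM in the TBK1-WT control. The lists that lay higher were T and NK cells, at 15.8 to 18.5 CPM in the TBK1-cKD IKKe knockout and 10.1 to 10.9 CPM in the TBK1-WT control (Cd4 by 0.83 ± 0.12, adjusted p = 4.14e-05), and macrophages, at 24600 to 25800 CPM in the TBK1-cKD IKKe knockout and 18200 to 19600 CPM in the TBK1-WT control (Lyz2 by 0.71 ± 0.12, adjusted p = 0.000246). The part of these markers in the result was not tested.

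Tapbpl had 15.8, 14.3 and 14.8 RPKM in the untreated TBK1-cKD IKKe knockout, against 8.80, 8.75 and 9.33 RPKM in the untreated TBK1-WT control, a difference of 0.82 ± 0.06 or 1.77-fold (adjusted p = 9.04e-10). Tap1 had 47.0, 43.1 and 43.4 RPKM, against 25.7, 27.6 and 32.5 RPKM in the TBK1-WT control, a difference of 0.72 ± 0.13 (adjusted p = 0.000484). Psme2 differed by 0.71 ± 0.15 (adjusted p = 0.00203), Psmb10 by 0.70 ± 0.13 (adjusted p = 0.000777) and Tapbp by 0.69 ± 0.10 (adjusted p = 4.5e-05). Tapbpl, Tap1, Psme2, Psmb10 and Tapbp were thus higher by 0.69 to 0.82 before any R837. The other genes, among them the second PA28 subunit and the other immunosubunits, differed by less.

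In the same untreated comparison Tap2 was higher by 0.61 ± 0.09, Psmb9 by 0.55 ± 0.12, Psmb8 by 0.50 ± 0.11 and Psme1 by 0.29 ± 0.07 (adjusted p between 4.44e-05 and 0.00534). Nlrc5 had 10.6, 10.7 and 11.3 RPKM in the TBK1-cKD IKKe knockout, against 8.07, 8.38 and 8.34 RPKM in the TBK1-WT control, with a difference of 0.48 ± 0.19 (adjusted p = 0.109). Its groups did not overlap, and it passed with the level as a model term (adjusted p = 5.09e-05) and without the 2 R837 libraries of high level (adjusted p = 4.65e-05), each time at 0.48 ± 0.08. Set beside R837, untreated Tapbpl in the TBK1-cKD IKKe knockout (5.29, 5.13 and 5.19 log2 CPM) overlapped R837-treated Tapbpl in the TBK1-WT control (5.30, 5.31 and 5.22). Tap1 (7.19, 7.05 and 7.07) and Tap2 (6.77, 6.67 and 6.65) overlapped only replicate 1 of that R837 group, of high nuclear RNA level (7.1 and 6.73). Its other libraries lay above them, at 7.42 and 7.46 for Tap1 and 6.9 and 6.91 for Tap2. Psmb9 in the untreated TBK1-cKD IKKe knockout (5.76, 5.67 and 5.65) lay just above R837-treated Psmb9 in the TBK1-WT control (5.42, 5.64 and 5.60). In Psme2, by contrast, the untreated TBK1-cKD IKKe knockout (4.48, 4.32 and 4.51 log2 CPM) stayed well under the R837-treated TBK1-WT control (5.84, 6.41 and 6.31).

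Neither alteration alone gave a called change in any of the 10 genes in untreated cells, in the fit of all 24 libraries. In the TBK1-WT IKKe knockout against the TBK1-WT control, 0 of 10 genes passed, with differences of 0.11 (Psme1) to 0.35 (Tap1). Of all genes 0.0% passed, so Ikbke itself was not called either. The differences of the 10 genes were all positive, 4 had an unadjusted p under 0.05, and DESeq2 called 0 of the 10. The shares of all genes with a positive difference or such a p are not given here. The 10 genes also moved together over the libraries, so a shared sign is not 10 separate results. In 8 of the 10 genes the 3 knockout libraries lay above the 3 control libraries, where 8.34% of all genes did so. Tap1 had 35.3, 34.4 and 38.3 RPKM in the IKKe knockout, against 25.7, 27.6 and 32.5 RPKM in the control, with an adjusted p = 1.

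In the untreated TBK1-cKD control against the untreated TBK1-WT control, 0 of 10 genes passed, where 5.05% of all genes were called. The values lay at or under 0, between -0.46 (Nlrc5) and 0.00 (Psme2). Of the 10 genes, 5 had an unadjusted p under 0.05, a count whose share over all genes is not given here. DESeq2 called 2 lower (Tap1 and Psme1). In 6 of the 10 genes the 3 TBK1-cKD libraries lay below the 3 TBK1-WT libraries, where 17.2% of all genes did so. Tap1 had 20.6, 19.2 and 21.4 RPKM in the TBK1-cKD control, against 25.7, 27.6 and 32.5 RPKM in the TBK1-WT control, with a difference of -0.44 ± 0.13 (adjusted p = 0.0556). Nlrc5 had 6.51, 5.53 and 5.49 RPKM in the TBK1-cKD control, against 8.07, 8.38 and 8.34 RPKM in the TBK1-WT control (-0.46 ± 0.19, adjusted p = 0.224). Without the 2 R837 libraries of high level, which are in neither group but feed the shared spread, 5 of the 10 passed as lower: Tap1 (-0.44, adjusted p = 0.00187), Nlrc5 (-0.45, adjusted p = 0.000341), Psmb9 (-0.26, adjusted p = 0.0447), Psme1 (-0.21, adjusted p = 0.0108) and Psmb8 (-0.17, adjusted p = 0.0245). The 5.05% of all genes called belongs to the fit of all 24 libraries, and the share in this fit is not given here.

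After R837, all 10 genes were higher in the TBK1-cKD IKKe knockout than in the TBK1-WT control, where 32.2% of all genes were called and 16.7% were called higher. The median difference was 0.94, beside -0.01 over all genes. The neutrophil markers summed to 96.6 to 183 CPM in the TBK1-cKD IKKe knockout and 17.8 to 20.2 CPM in the TBK1-WT control after R837, with S100a8 higher by 3.16 ± 0.18 (adjusted p = 1.89e-11) and S100a9 lower (-4.18 ± 0.44, adjusted p = 1.51e-07), and the fibroblast markers to 4.57 to 6.38 CPM in the TBK1-cKD IKKe knockout and 20.5 to 26.5 CPM in the TBK1-WT control. The macrophage markers summed to 18500 to 20700 CPM in the TBK1-cKD IKKe knockout and 23600 to 30200 CPM in the TBK1-WT control after R837. T and NK cell markers summed to 4.44 to 5.27 CPM in the TBK1-cKD IKKe knockout and 3.02 to 3.32 CPM in the TBK1-WT control. The part of these lists in the result was not tested. The peptide pump led: Tap2 had 70.7, 63.5 and 55.2 RPKM, against 27.0, 29.8 and 29.4 RPKM in the TBK1-WT control, a difference of 1.34 ± 0.09 or 2.53-fold (adjusted p = 1.93e-10). Tap1 had 105, 89.4 and 71.6 RPKM, against 40.7, 49.6 and 50.2 RPKM in the TBK1-WT control, a difference of 1.12 ± 0.13 (adjusted p = 6.49e-07). In both genes the lowest TBK1-cKD IKKe knockout library stood clear of the highest TBK1-WT control library.

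The immunosubunits differed by close amounts after R837, Psmb9 by 1.0 ± 0.12 (adjusted p = 9.96e-07), Psmb8 by 0.98 ± 0.11 (adjusted p = 2.73e-07) and Psmb10 by 0.91 ± 0.13 (adjusted p = 1.28e-05). Psmb8 had 276, 254 and 204 RPKM in the TBK1-cKD IKKe knockout, against 117, 161 and 151 RPKM in the TBK1-WT control. Tapbp was higher by 0.84 ± 0.10 (adjusted p = 1.11e-06) and Tapbpl by 0.82 ± 0.06 (adjusted p = 2.99e-10). PA28 differed least, with 0.60 ± 0.07 for Psme1 (adjusted p = 4.29e-07) and 0.52 ± 0.14 for Psme2 (adjusted p = 0.0066). Psme2 had 89.9, 87.5 and 65.7 RPKM in the TBK1-cKD IKKe knockout, against 51.6, 74.8 and 68.4 RPKM in the TBK1-WT control. It was the one gene of the 10 whose groups overlapped, where 17.6% of all genes had every TBK1-cKD IKKe knockout library above every TBK1-WT control library, and its call was lost without TBK1-WT control replicate 1 (0.37 ± 0.14, adjusted p = 0.0518).

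Nlrc5 was higher by 0.96 ± 0.19 (adjusted p = 0.000357), with the library of high nuclear RNA level at 7.73 log2 CPM in the TBK1-cKD IKKe knockout and 6.91 log2 CPM in the TBK1-WT control. The libraries of low level had 7.15 and 7.05 log2 CPM in the TBK1-cKD IKKe knockout, and 5.96 and 6.05 log2 CPM in the TBK1-WT control. Without the 2 libraries of high level the difference was 1.11 ± 0.10 (adjusted p = 2.61e-09), and for Tap2 it was 1.40 ± 0.08 (adjusted p = 2.4e-12). All 10 genes passed without those 2 libraries, in a fit whose share of all genes called is not given here. Fitted on the 2 groups compared alone, 8 passed, with Nlrc5 (adjusted p = 0.0884) and Psme2 (adjusted p = 0.142) lost.

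**Figure D3:**
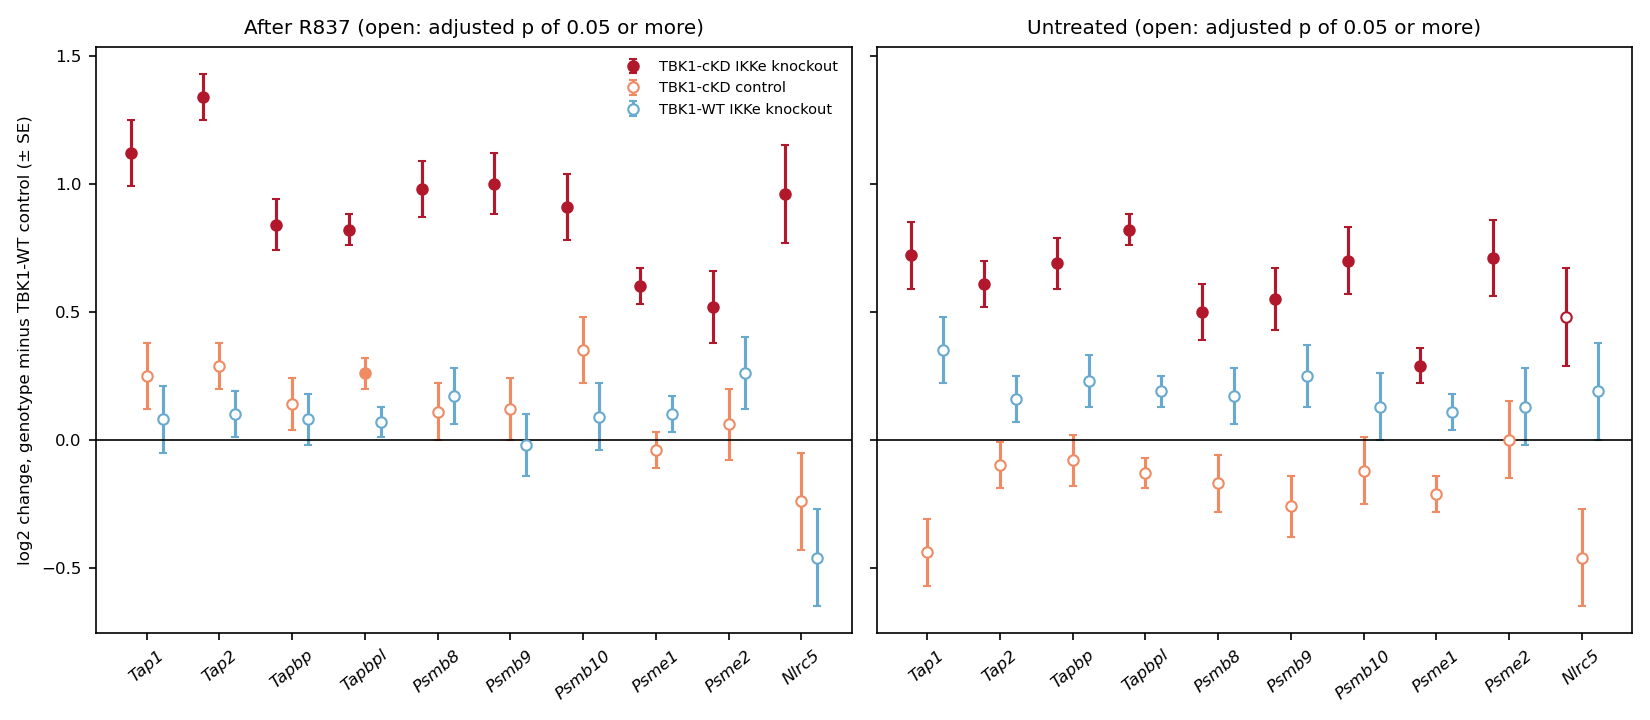
Difference of each altered genotype from the TBK1-WT control (log2, with the standard error) after R837 (left) and untreated (right), 3 libraries per group; open points have an adjusted p of 0.05 or more. The TBK1-cKD IKKe knockout stands at 0.52 to 1.34 after R837 and 0.29 to 0.82 untreated, and of the 20 points of the TBK1-cKD control and 20 of the TBK1-WT IKKe knockout 1 is filled, Tapbpl in the TBK1-cKD control after R837.

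The TBK1-cKD IKKe knockout also stood apart from each single alteration after R837. The neutrophil markers summed to 96.6 to 183 CPM in the TBK1-cKD IKKe knockout, against 23.3 to 36.1 CPM in the TBK1-cKD control and 26.5 to 29.9 CPM in the TBK1-WT IKKe knockout. The fibroblast markers summed to 4.57 to 6.38 CPM in the TBK1-cKD IKKe knockout. They summed to 9.88 to 13.7 CPM in the TBK1-cKD control and 15.6 to 21.4 CPM in the TBK1-WT IKKe knockout. Macrophage markers summed to 18500 to 20700 CPM in the TBK1-cKD IKKe knockout. They summed to 22300 to 23700 CPM in the TBK1-cKD control and 21200 to 22100 CPM in the TBK1-WT IKKe knockout. T and NK cell markers summed to 4.44 to 5.27 CPM in the TBK1-cKD IKKe knockout. They lay at 2.03 to 3.08 CPM in the TBK1-cKD control and 3.36 to 4.22 CPM in the TBK1-WT IKKe knockout. The part of these lists was not tested. Against the TBK1-cKD control all 10 genes were higher (34.5% of all genes called, 18.3% higher), with a median of 0.78 beside 0.03 over all genes. Nlrc5 differed by 1.20 ± 0.19 (adjusted p = 4.4e-05), Tap2 by 1.05 ± 0.09 (adjusted p = 1.07e-08) and Psmb9 by 0.88 ± 0.12 (adjusted p = 7.17e-06). Psme2, with 89.9, 87.5 and 65.7 RPKM, against 70.4, 50.3 and 74.5 RPKM in the TBK1-cKD control, differed by 0.46 ± 0.14 (adjusted p = 0.0152), a call that was lost without R837 replicate 2 of the TBK1-cKD control (0.31) or replicate 1 (0.37) or 2 (0.40) of the TBK1-cKD IKKe knockout. Fitted on these 2 groups alone, 8 passed, with Psmb10 (adjusted p = 0.0622) and Psme2 (adjusted p = 0.157) lost.

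Against the TBK1-WT IKKe knockout 9 genes were higher after R837 (30.6% of all genes called, 16.5% higher), with a median of 0.81 beside 0.02 over all genes. Nlrc5 differed by 1.43 ± 0.19 (adjusted p = 5.69e-06), at 7.15, 7.05 and 7.73 log2 CPM, against 5.86, 5.92 and 5.95 log2 CPM in the TBK1-WT IKKe knockout. Tap2 differed by 1.24 ± 0.09 (adjusted p = 1.17e-09) and Tap1 by 1.04 ± 0.13 (adjusted p = 2.63e-06). Psme2 did not pass (0.26 ± 0.14, adjusted p = 0.18), and did without the 2 libraries of high level (0.42 ± 0.10, adjusted p = 0.00269).

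After R837, each alteration alone gave 1 called difference or none from the TBK1-WT control among the 10 genes. In the TBK1-WT IKKe knockout 0 of 10 genes passed (1.85% of all genes called), with differences of -0.46 (Nlrc5) to 0.26 (Psme2), 1 unadjusted p under 0.05 and 0 calls by DESeq2. Without the 2 libraries of high level Nlrc5 was at -0.09 ± 0.09 and Psme2 at 0.11 ± 0.11. In the TBK1-cKD control 1 gene passed (8.89% of all genes called, 4.48% higher), Tapbpl. It had 15.7, 16.9 and 16.2 RPKM in the TBK1-cKD control, against 14.7, 14.4 and 13.3 RPKM in the TBK1-WT control, a difference of 0.26 ± 0.06 (adjusted p = 0.00668), which did not pass without the count filter (adjusted p = 0.0771) or fitted on these 2 groups alone (adjusted p = 0.429). Tap2 stood just outside the threshold at 0.29 ± 0.09 (adjusted p = 0.0502). These p-values do not show that the remaining genes were equal between the groups, as standard errors reached 0.19.

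The test of whether the 2 alterations added up after R837 compared the effect of the IKKe knockout in TBK1-cKD cells with its effect in TBK1-WT cells. Of the 10 genes, 8 had a positive interaction and none a negative one, where 22.2% of all genes were called and 13.3% were positive, and the median was 0.66 beside 0.04 over all genes. Nlrc5 had 1.66 ± 0.27 (adjusted p = 0.000173), Tap2 0.96 ± 0.13 (adjusted p = 2.27e-05) and Psmb9 0.90 ± 0.17 (adjusted p = 0.000879). Without the 2 libraries of high level Nlrc5 was at 1.07 ± 0.12 (adjusted p = 1.22e-06), below Tap2 at 1.14 ± 0.10 and Psmb9 at 1.14 ± 0.13, so their order rests on those libraries. The IKKe knockout thus went with a difference of 1.05 in Tap2 in TBK1-cKD cells and 0.10 in TBK1-WT cells.

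The interactions of Tap1 (0.78 ± 0.18), Psmb8 (0.70 ± 0.15), Tapbp (0.62 ± 0.14), Psme1 (0.54 ± 0.10) and Tapbpl (0.50 ± 0.08) had adjusted p between 0.000195 and 0.00515. Psmb10 (0.47 ± 0.19, adjusted p = 0.0748) and Psme2 (0.20 ± 0.20, adjusted p = 0.488) did not pass. Without the 2 libraries of high level both did, at 0.79 ± 0.11 (adjusted p = 1.86e-05) and 0.51 ± 0.15 (adjusted p = 0.018). Both standard errors were smaller in that fit, and its share of all genes called is not given here. Fitted on these 4 groups alone, 5 of the 10 passed, with Tap1, Tapbp and Psmb8 lost.

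The size of the R837 response was compared next. The response of the TBK1-cKD IKKe knockout, which started from a higher level, exceeded that of the TBK1-WT control in 3 of 10 genes (17.3% of all genes called, 7.38% larger), in Tap2 by 0.73 ± 0.13 (adjusted p = 0.000224), in Psmb8 by 0.48 ± 0.15 (adjusted p = 0.0304) and in Psme1 by 0.31 ± 0.10 (adjusted p = 0.0278). Tap2 kept its call whichever library was left out. Without the 2 libraries of high level 6 genes passed, with Tap1 (0.46 ± 0.14), Psmb9 (0.54 ± 0.13) and Nlrc5 (0.63 ± 0.12) added. In that fit the Psmb8 difference was again 0.48, with a smaller standard error of 0.08. The shares of all genes above belong to the fit of all 24 libraries, and those of the smaller fit are not given here. Psmb8 did not pass on these 4 groups alone (adjusted p = 0.137), nor Psme1 without the count filter (adjusted p = 0.127). The Psmb8 call was lost at 0.34 to 0.48 without replicate 1 or 2 of the R837-treated or replicate 2 or 3 of the untreated TBK1-cKD IKKe knockout, replicate 1 of the R837-treated or replicate 1 or 3 of the untreated TBK1-WT control. The Psme1 call was lost at 0.25 to 0.31 without replicate 2 or 3 of the untreated TBK1-cKD IKKe knockout, replicate 1 of the R837-treated or replicate 3 of the untreated TBK1-WT control. For Tapbpl the difference in response was 0.00 ± 0.08 (adjusted p = 0.995), and its level was higher by 0.82 both untreated and after R837.

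The response of the TBK1-cKD control exceeded that of the TBK1-WT control in 1 of 10 genes, Tapbpl (0.39 ± 0.08, adjusted p = 0.0266), where 0.879% of all genes were called and 0.674% were larger. This call was lost, at 0.36 to 0.40, without replicate 3 of the R837-treated or replicate 1 or 2 of the untreated TBK1-cKD control, replicate 3 of the R837-treated or any of the 3 untreated TBK1-WT control libraries, and without the count filter or on these 4 groups alone. Tap1 differed by 0.70 ± 0.18 (adjusted p = 0.0895). Without the 2 libraries of high level Tap1 (0.58 ± 0.13, adjusted p = 0.0197) and Nlrc5 (0.59 ± 0.12, adjusted p = 0.00762) also passed. The share of all genes called in that fit is not given here. For the TBK1-WT IKKe knockout 0 of 10 genes differed in response (0.245% of all genes called, 1 of the 10 with an unadjusted p under 0.05, DESeq2 calls 0), with values of -0.65 (Nlrc5) to 0.13 (Psme2), which were -0.28 ± 0.12 and -0.02 ± 0.16 without the 2 libraries of high level.

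The share of immunosubunits among the catalytic proteasome RNAs, Psmb8, Psmb9 and Psmb10 as a percent of their summed RPKM plus that of their constitutive counterparts Psmb5, Psmb6 and Psmb7, was highest in the R837-treated TBK1-cKD IKKe knockout, at 61.6, 59.7 and 60.9%. It was 46.9, 48.0 and 51.2% in the TBK1-cKD control, 48.7, 47.0 and 48.7% in the TBK1-WT IKKe knockout and 50.2, 49.3 and 48.7% in the TBK1-WT control after R837. Untreated, it was 54.6, 52.7 and 51.9% in the TBK1-cKD IKKe knockout, 39.8, 39.6 and 41.1% in the TBK1-cKD control, 48.1, 47.1 and 48.5% in the TBK1-WT IKKe knockout and 46.1, 44.9 and 46.8% in the TBK1-WT control. The untreated TBK1-cKD IKKe knockout thus exceeded every library of the other 3 genotypes, R837-treated ones included.

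The differences after R837 were 11.4 percentage points between the TBK1-cKD IKKe knockout and the TBK1-WT control, 12 points against the TBK1-cKD control and 12.6 points against the TBK1-WT IKKe knockout. Untreated, the TBK1-cKD IKKe knockout exceeded the TBK1-WT control by 7.14 points and the TBK1-cKD control differed from it by -5.75 points. R837 went with 7.70 points more in the TBK1-cKD IKKe knockout, 8.55 in the TBK1-cKD control, 0.221 in the TBK1-WT IKKe knockout and 3.49 in the TBK1-WT control. Each of these but the 0.221 had an exact two-sided permutation p = 0.1, the smallest that 3 against 3 libraries can give (0.133 after Benjamini-Hochberg adjustment over 12 comparisons), and the 0.221 had p = 0.6.

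By pair, Psmb10 made up 70.4 ± 1.01% of Psmb10 plus Psmb7 in the TBK1-cKD IKKe knockout after R837 and 57.9 ± 0.98% in the TBK1-WT control after R837 (SD, n = 3 each). Psmb9 was the small partner of its pair, at 18.9 ± 1.21% of Psmb9 plus Psmb6 in the TBK1-cKD IKKe knockout and 13.1 ± 1.49% in the TBK1-WT control after R837. Psmb6 itself averaged 222 RPKM in the TBK1-cKD IKKe knockout and 201 RPKM in the TBK1-WT control after R837. The Psmb9 share of its pair was lower with R837 in the means of all 4 genotypes, at 18.9% after R837 and 21% untreated in the TBK1-cKD IKKe knockout, 11.8% and 13.3% in the TBK1-cKD control, 11.4% and 19.2% in the TBK1-WT IKKe knockout, and 13.1% and 17.4% in the TBK1-WT control, and this was not tested. Psmb5 was measured at 2.03 to 6.90 RPKM in the group means and shares 46.8% of its 50-base stretches with the pseudogene Gm3375, so its level and the Psmb8 pair are uncertain. Without Psmb8 and Psmb5 the share was 41.9 ± 1.27% in the R837-treated TBK1-cKD IKKe knockout and 31.7 ± 0.745% in the R837-treated TBK1-WT control.

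**Figure D4:**
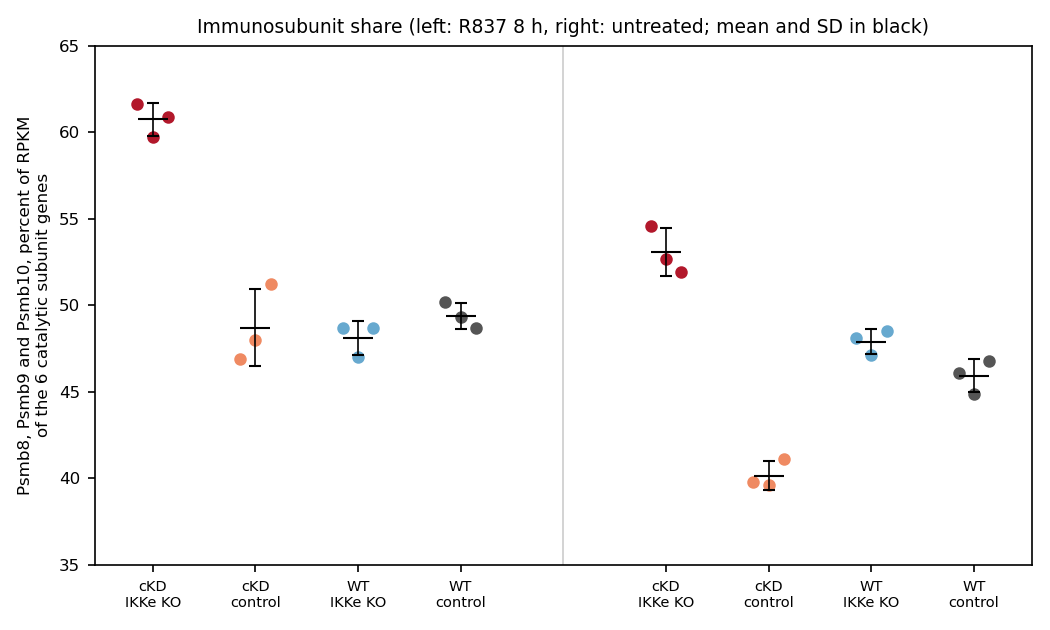
Percent of RPKM of the 6 catalytic subunit genes that came from Psmb8, Psmb9 and Psmb10, one point per library, mean and SD in black; the axis runs between 35 and 65%. The TBK1-cKD IKKe knockout (cKD IKKe KO) averages 60.8% after R837 and 53.1% untreated, above all other groups, and the untreated TBK1-cKD control averages 40.2%, below all other groups.

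The lists of related genes, chosen with earlier results known, were counted in the same fits. After R837 in the TBK1-WT control, 11 of 11 other 20S core subunits, 17 of 18 subunits of the 19S regulatory particle and 3 of 3 constitutive catalytic subunits rose, where 30.6% of all genes were called higher, with medians of 0.96, 0.74 and 0.91. Psma6, a core alpha subunit, rose by 2.90 ± 0.15 (adjusted p = 6.17e-13). Between R837-treated TBK1-cKD IKKe knockout and TBK1-WT control libraries, 0 of 11, 6 of 18 and 1 of 3 were higher and none was lower, where 16.7% of all genes were called higher, with medians of 0.09, 0.09 and 0.12. The list of class I heavy chains and B2m held 5 genes, and all 5 were higher in that comparison, led by H2-T23 (1.09 ± 0.10, adjusted p = 2.23e-08), and all 5 were higher untreated, where 8.52% of all genes were called higher, led by H2-K1 (0.93 ± 0.09, adjusted p = 7.94e-08). The class I chaperones of the endoplasmic reticulum (3 genes) had 0 higher in either comparison, and 1 lower untreated (Pdia3, -0.19 ± 0.05, adjusted p = 0.00952). Of 6 trimming and cytosolic peptidases, 2 were higher and 1 lower after R837, with Npepps at 0.46 ± 0.10 (adjusted p = 0.000961) and Blmh at -0.45 ± 0.12 (adjusted p = 0.00515), and of 8 other activators and assembly factors 1 was higher, Psme4 (0.15 ± 0.06, adjusted p = 0.0418).

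Among 10 transcriptional regulators of this set, 5 rose after R837 in the TBK1-WT control and 3 fell, where 62.6% of all genes were called. Irf1, an interferon regulatory factor of class I and immunoproteasome genes, rose by 1.14 ± 0.11 (adjusted p = 7.47e-09), and Ciita, the class II transactivator, had the largest fall, by 1.87 ± 0.30 (adjusted p = 1.67e-05). In untreated TBK1-cKD IKKe knockout libraries 5 of the 10 were higher than in the TBK1-WT control and none was lower. The largest difference was in Irf1 (1.22 ± 0.11, adjusted p = 2.91e-08), and 8.52% of all genes were called higher. After R837, 4 of the 10 were higher and none was lower, where 16.7% of all genes were called higher. The largest difference was in Irf8 (0.96 ± 0.06, adjusted p = 7.05e-11). Against the R837-treated TBK1-cKD control, Irf1 was lower in the TBK1-cKD IKKe knockout (-0.38 ± 0.11, adjusted p = 0.00774). The part of these regulators in the levels of the 10 class I loading and immunoproteasome genes was not tested.

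**Figure D5:**
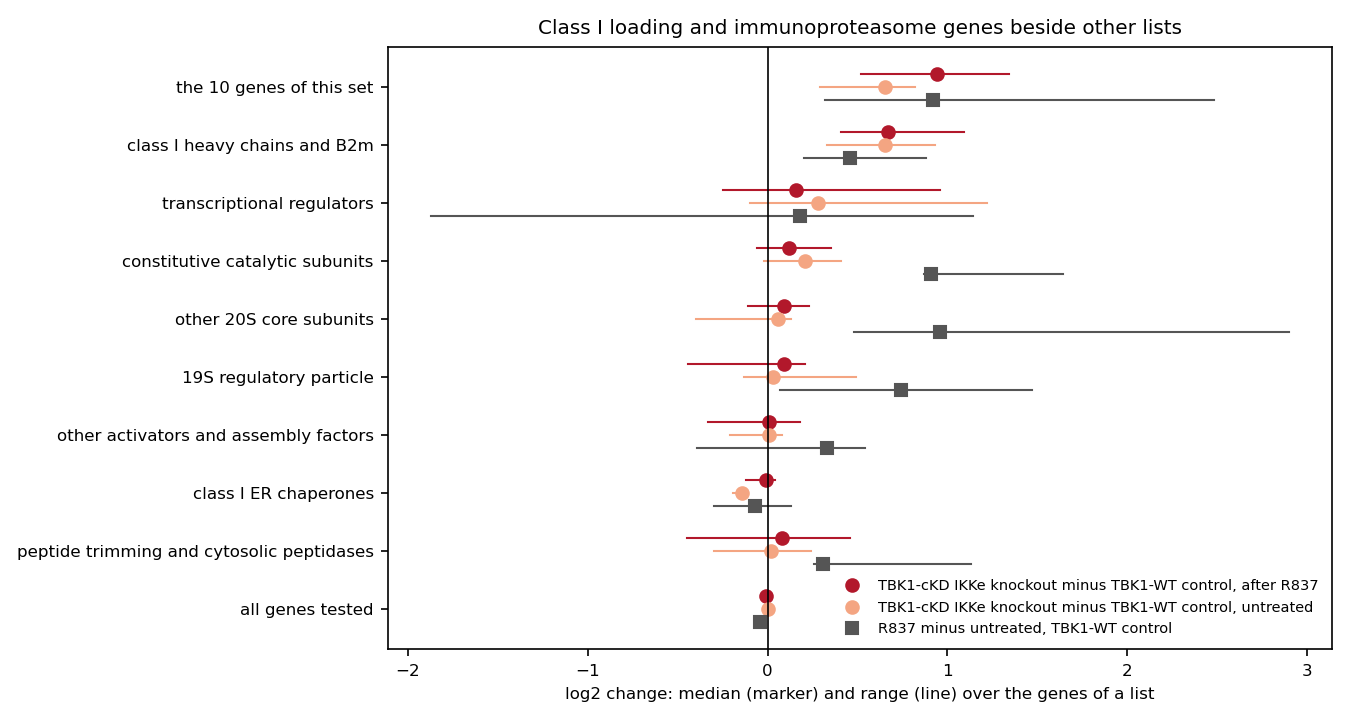
Median (marker) and range (line) of the log2 change over the genes of each list, for the TBK1-cKD IKKe knockout minus the TBK1-WT control after R837 and untreated, and for R837 minus untreated in the TBK1-WT control. The 10 genes have medians of 0.94, 0.65 and 0.92 in these 3 contrasts, whereas the other 20S core subunits have 0.09, 0.06 and 0.96.

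The genes whose levels over the 24 libraries were most like the mean of the 10 (standardized log2 CPM, Pearson r) were H2-T22 (0.994), Lgals9 (0.992), Gbp3 (0.988), Eng (0.987) and Herc6 (0.985). H2-T22 encodes a non-classical class I molecule, Lgals9 the lectin galectin-9 and Gbp3 an interferon-inducible GTPase. The 10 genes themselves correlated with that mean, of which each is a part, at 0.689 (Nlrc5) to 0.988 (Tap1 and Tapbp), with Psme2 at 0.904 and Psmb9 at 0.927. These correlations describe libraries that share treatment, genotype and nuclear RNA level. Gbp3 was higher by 2.27 ± 0.13 in the R837-treated TBK1-cKD IKKe knockout than in the R837-treated TBK1-WT control (adjusted p = 1.69e-11).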

How the data were processed

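The deposited tables hold whole-number read counts for each Ensembl gene, and deposited RPKM values that scale them by gene width and library size, per the file headers. Reads were aligned with GSNAP to GRCm38, as the submitters' processing notes state. The read counter and its gene models were not given in the labels. Libraries were TruSeq v2, single-end 50 bp, per the labels' protocols. Symbols came from GENCODE M21. Treatment was read from the titles. Replicate numbers follow record order and were not used to pair libraries. The 10 genes, the lists and the naming rule (all 10, and per list the largest called change in each direction) were chosen with earlier results of these data known. Counts of all 24 libraries were fitted with 1 mean per group in edgeR 4.0.16 (quasi-likelihood test, TMM, filterByExpr with a minimum count of 10 and total of 15, two-sided, Benjamini-Hochberg over 14681 genes, threshold 0.05; R 4.3.3, limma 3.58.1), leaving 16 residual degrees of freedom and a common biological coefficient of variation of 0.116. Standard errors are the log2 change divided by the square root of F. Log2 CPM used an offset of 0.5. The immunosubunit share was compared by exact permutation tests. Alternatives were RLE size factors, no count filter, DESeq2 1.42.0, a term for the nuclear RNA level, the 14 libraries of high level, only the groups compared and each library left out. Every share of all genes called belongs to the main fit of all 24 libraries, and none is given for an alternative. No share of all genes is given for an unadjusted p or for the sign of a difference. Chosen after seeing the data were leaving out 3 libraries together, summing Psme2 with Psme2b, and the share without Psmb8 and Psmb5. Depth, 19727746 to 41323219 counts per library, sets the counting precision.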

Additional observations from a re-analysis of the deposited data

Results flagged for a closer look

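The R837 response differed between genotypes by a test of the difference itself (edgeR interaction term) in 4 cases. Tapbpl responded more in the TBK1-cKD control than in the TBK1-WT control, by 0.39 on the log2 scale. Tap2 (0.73), Psmb8 (0.48) and Psme1 (0.31) responded more in the TBK1-cKD IKKe knockout than in the TBK1-WT control. These calls were not equally firm. Of 20 alternatives each, the call was lost in 9 for Tapbpl, 8 for Psmb8, 5 for Psme1 and 0 for Tap2.

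The effect of the IKKe knockout after R837 differed between TBK1-cKD and TBK1-WT cells in 8 genes: Nlrc5 (1.66), Tap2 (0.96), Psmb9 (0.90), Tap1 (0.78), Psmb8 (0.70), Tapbp (0.62), Psme1 (0.54) and Tapbpl (0.50). In each the effect was the larger in TBK1-cKD cells. The nuclear RNA level of the libraries moves with these values as given above, and its part in them was not tested beyond the fits with that term and without the 2 libraries.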

How the results depend on the processing

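Of 2500 alternative values of the 160 gene and comparison pairs, 2383 kept their side of the threshold, 40 lost their call, 76 gained one and 1 turned round: Nlrc5 after R837 in the TBK1-WT IKKe knockout, at 0.43 with a term for the nuclear RNA level. The share of all genes called in each setting is not given here. Counts of the 10 genes called, in either direction, moved as follows. In the untreated TBK1-cKD control (0) they were 1 without the count filter, 4 with the nuclear term, 5 without the 2 R837 libraries of high level, 5 without these and R837 replicate 2 of the TBK1-cKD control, 5 on the groups alone and 2 by DESeq2. In the TBK1-cKD control after R837 (1) they were 2 by RLE, 0 without the filter and 3 without the 3 libraries. Of those 3 genes, Tap2 and Tapbpl were higher and Psme1 was lower (-0.18). The counts were 0 on the groups alone, 2 by DESeq2, and 1 to 3 when each library was left out. For the response of the TBK1-cKD control (1) they were 3 with the term and 3 without the 2 or 3 libraries, 0 on the groups alone, 2 by DESeq2, and 0 to 2 without 1 library. For the response of the TBK1-cKD IKKe knockout (3) they were 6 with the term and 6 without the 2 or 3 libraries, 2 on the groups alone and 2 without the filter, 4 by DESeq2, and 1 to 5 without 1 library. For the interaction (8) they were 5 on the groups alone, 10 with the term, 10 without the 2 or 3 libraries and 8 to 9 without 1 library. The cause was not tested.

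With CPM in place of RPKM the immunosubunit share was 72.3, 61.3, 60.8 and 61.9% after R837 (TBK1-cKD IKKe knockout, TBK1-cKD control, TBK1-WT IKKe knockout, TBK1-WT control) and 65.4, 52.9, 60.6 and 58.5% untreated in the same order. Without Psmb8 and Psmb5 it was 41.9, 32.6, 29.9 and 31.7% after R837 and 36.6, 24.6, 30.9 and 29.1% untreated. No paired analysis was possible because the labels give no replicate numbers and tie no library to a mouse, so record order was not used as a block.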
